A study of Homo sapiens with 4 samples.

Results

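The genes described here are ATF4, the transcription factor at the end of the integrated stress response, and 9 genes of the unfolded protein response. A region of acetylated histone H3 lysine 27 (H3K27ac) belongs to them when the authors' table of called regions names one of the 10 genes as its nearest gene. By that rule 0 of 604 regions in testosterone-treated cells and 15 of 19110 regions in control cells belonged to them. Acetylation of this lysine marks active promoters and enhancers. The study used ChIP-seq on KGN, a line of human granulosa tumor cells, grown in DMEM-F12 with serum. The treated cells were kept in testosterone for 24 h (the labels give 10 um), and the other cells are labelled control, with no vehicle named. Each condition had 1 immunoprecipitated (IP) library and 1 input library of the same cell line, and regions were called from the IP against its own input. A single IP per condition leaves nothing to measure spread with, so the conditions are set side by side without a test.

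Misfolded protein in the endoplasmic reticulum (ER) is sensed by 3 membrane proteins. PERK phosphorylates the translation factor eIF2alpha, which lowers protein synthesis and lets ATF4 protein be made, and ATF4 then activates genes of amino acid supply and, under lasting stress, of cell death. IRE1 splices XBP1 mRNA into the form that encodes an active factor, and ATF6 is cut from its membrane anchor, and both factors raise ER chaperones and the machinery that degrades misfolded ER protein. Other kinases, such as the amino acid sensor GCN2, also phosphorylate eIF2alpha, so ATF4 answers to more than the ER. In granulosa cells, which secrete protein hormones, these pathways have been studied in follicle growth and atresia.

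Promoter sequences of 5 genes are shown because they hold a match to a response element of these pathways, and the matches are set against the acetylated regions further on. They come from RefSeq (GRCh38.p14), each covers 250 bases before to 50 bases after an annotated start, and capitals mark the match. Matches were sought on both strands to the C/EBP-ATF response element (CARE, TGATGNAA), which ATF4 binds, to the ER stress element (ERSE, CCAAT and CCACG with 9 bases between them), to ERSE-II (ATTGG and CCACG with 1 base between them) and to the unfolded protein response element (UPRE, TGACGTGG). The windows are CHAC1 at chr15:40953221-40953520 (plus strand), ASNS at chr7:97872359-97872658 (minus strand), HSPA5 at chr9:125241294-125241593 (minus strand), XBP1 at chr22:28800520-28800819 (minus strand) and HERPUD1 at chr16:56931892-56932191 (plus strand), all read 5′ to 3′ along the gene.
CHAC1: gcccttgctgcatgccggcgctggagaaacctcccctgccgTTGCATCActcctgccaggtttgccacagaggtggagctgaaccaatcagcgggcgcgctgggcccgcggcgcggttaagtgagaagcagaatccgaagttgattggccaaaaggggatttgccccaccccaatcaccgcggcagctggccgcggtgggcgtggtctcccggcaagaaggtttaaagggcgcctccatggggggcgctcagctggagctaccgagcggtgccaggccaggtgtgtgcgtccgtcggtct
ASNS: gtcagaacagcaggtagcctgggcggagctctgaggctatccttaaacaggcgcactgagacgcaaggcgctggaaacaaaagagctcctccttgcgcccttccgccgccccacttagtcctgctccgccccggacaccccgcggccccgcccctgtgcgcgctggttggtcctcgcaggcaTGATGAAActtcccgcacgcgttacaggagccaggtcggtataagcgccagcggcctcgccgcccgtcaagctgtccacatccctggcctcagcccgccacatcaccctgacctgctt
HSPA5: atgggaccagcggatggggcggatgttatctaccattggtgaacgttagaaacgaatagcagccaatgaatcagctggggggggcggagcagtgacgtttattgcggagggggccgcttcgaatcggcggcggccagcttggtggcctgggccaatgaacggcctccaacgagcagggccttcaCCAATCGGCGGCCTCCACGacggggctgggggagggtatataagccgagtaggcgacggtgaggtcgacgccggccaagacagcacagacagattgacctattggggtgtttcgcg
XBP1: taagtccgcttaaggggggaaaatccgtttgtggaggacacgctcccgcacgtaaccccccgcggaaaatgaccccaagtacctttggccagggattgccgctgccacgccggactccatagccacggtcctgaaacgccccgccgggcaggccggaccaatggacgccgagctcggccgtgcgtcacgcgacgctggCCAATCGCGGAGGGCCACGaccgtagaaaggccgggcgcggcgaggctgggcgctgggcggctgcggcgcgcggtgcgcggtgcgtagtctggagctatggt
HERPUD1: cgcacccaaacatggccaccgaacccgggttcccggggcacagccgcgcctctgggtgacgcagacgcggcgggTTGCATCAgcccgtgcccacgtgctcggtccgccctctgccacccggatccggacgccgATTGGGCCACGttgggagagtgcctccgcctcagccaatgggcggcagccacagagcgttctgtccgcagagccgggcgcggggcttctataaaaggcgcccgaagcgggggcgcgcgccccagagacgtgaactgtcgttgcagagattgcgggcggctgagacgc
The match in CHAC1 and in ASNS is a CARE, that in HSPA5 and in XBP1 is an ERSE, and HERPUD1 holds a CARE followed by an ERSE-II. The CARE of CHAC1 and of HERPUD1 lies on the strand opposite to the gene. No UPRE was found in the 16 RefSeq windows of the 10 genes, and no match overlapped another.

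The first comparison asked which of the 10 genes carried the mark in each condition. No region of testosterone-treated cells was assigned to any of them, whereas 8 of 10 had a region in control cells and 7 of 10 had one within 1 kb of a start, here called a promoter region. CHAC1, which degrades glutathione, and ASNS, which makes asparagine, had the highest acetylation of the 10 genes in control cells, with a fold enrichment of 14.0 and 13.1 over the local background. DDIT3 (CHOP, the transcription factor of stress-induced cell death) and ATF6 had no region in either list. A promoter region was found at 0.936% of all 19974 protein-coding genes in testosterone-treated cells and at 41.0% in control cells. Any assigned region, near or far, was found for 2.42% of genes in testosterone-treated cells and 48.2% in control cells. The 0 of 10 in treated cells is therefore close to the share of all genes and says nothing particular about these 10.

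The testosterone table lists called regions only, so it holds no value for these promoters, and a gene without a region was not measured as being at 0. All testosterone regions together had a fold between 3.01 and 7.89, a pileup (fragments at the summit, as scaled by the caller) between 8 and 35 and a -log10 p of at least 4.92. All 15 control regions of the 10 genes had a fold and a pileup above the lowest of the testosterone list, as most control regions had. The lowest of the 15 by fold (3.01, at HERPUD1) stood at percentile 2.22 of all control regions. The lowest by pileup (10.3, at SESN2) stood at percentile 8.33. By -log10 p, 14 of 15 exceeded the weakest testosterone region, which 89.9% of all control regions did. The exception was the downstream region at HERPUD1, with a -log10 p of 4.70. Above the highest testosterone fold lay 3 of the 15 (at CHAC1, ASNS and ATF4), against 10.9% of all control regions, and above the highest pileup lay 2 (at CHAC1 and ASNS), against 2.98%. The same pair also exceeded the highest -log10 p of the testosterone list, as did 7.42% of all control regions. Fold and pileup are the authors' values, scaled to each pair of libraries, and they describe each list without measuring a difference between the lists. None of the 15 control regions was overlapped by a testosterone region, and 0.884% of all control regions were.

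**Figure D1:**
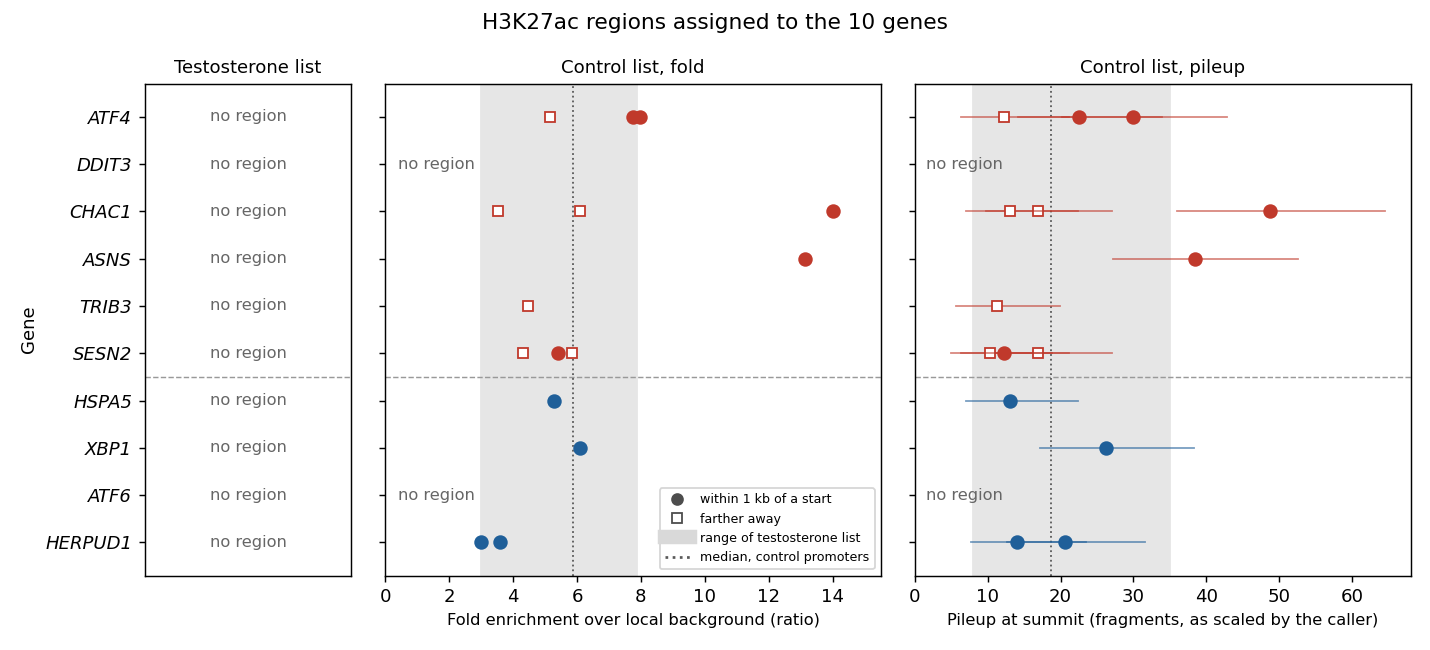
Regions assigned to each gene: the left panel is the testosterone list, which holds none, and the others give control fold (ratio) and control pileup (fragments as scaled by the caller, with approximate Poisson 95% intervals that cover counting error only). Filled points lie within 1 kb of a start, open squares farther away, and the grey band is the range of all testosterone regions. The dotted line is the median over all control promoters, each taken by its region with the highest fold. The promoter regions of CHAC1 and ASNS stand to the right of the band in both control panels, and the start region of ATF4 does so in fold only.

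The testosterone region closest to any of the 10 genes lay 19.99 kb beyond HERPUD1, near CETP (fold 5.10). The next were 345 kb from DDIT3, 381 kb from CHAC1, 467 kb from XBP1 and 539 kb from ATF6. For ATF4, SESN2, ASNS, TRIB3 and HSPA5 the nearest was between 1008 kb and 4096 kb away. No treated region therefore lay on a gene body of the 10 or within 1 kb of one, whichever gene it was credited to.

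ATF4 itself had 3 control regions on chromosome 22, of which 2 lay at its promoter. A region from 39520383 to 39521028 covered the RefSeq start at 39520559, with a fold of 7.97, a pileup of 22.5 (approximate Poisson 95% interval 14.2 to 33.9) and a -log10 q of 12.6. A second, from 39519345 to 39520108, lay upstream over an earlier start of the authors' annotation, with a fold of 7.74 and a pileup of 29.97 (20.2 to 42.8). The upstream region thus had the higher pileup and the start region the slightly higher fold, and their intervals of pileup overlapped. The third, from 39525221 to 39525822, lay beyond the end of the gene and was weaker, at a fold of 5.16. The ATF4 promoter stood at percentile 80.4 by fold and 64.6 by pileup of the 8199 protein-coding genes with a control promoter region. Each gene was taken by its promoter region with the highest fold, which at ATF4 was the start region. The upstream region, with the higher pileup, was not ranked.

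Of the 10 genes, CHAC1 had the widest and strongest region. It spanned 1362 bp of chromosome 15 (40952344 to 40953705) across the start, with a pileup of 48.7 (36.0 to 64.4), a fold of 14.0 and a -log10 q of 38.3, and it ranked 79 by fold among the 8199 marked promoters. The ASNS region on chromosome 7 (97871770 to 97872494, 725 bp) also crossed the start, with a pileup of 38.4 (27.2 to 52.6), a fold of 13.1 and a -log10 q of 30.2, and ranked 118. No other gene of the 10 came near these ranks, the next being ATF4 at rank 1608. SESN2, a stress-induced brake on the growth kinase mTORC1, had a promoter region of middling fold and low pileup on chromosome 1 (28259506 to 28260146). Its fold was 5.41, its pileup was 12.2 (6.33 to 21.2), and it stood at percentile 41.4 by fold and 8.51 by pileup.

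TRIB3, a pseudokinase that is induced by ATF4 and CHOP and restrains ATF4 in turn, had no promoter region in control cells. Its 1 region (chromosome 20, 371804 to 372319, fold 4.47, pileup 11.2) lay in an intron of the neighboring transcription unit, 8.98 kb upstream of the first TRIB3 start with a RefSeq promoter sequence. DDIT3 had none by the authors' assignment. A weak region on chromosome 12 (57521300 to 57521561, fold 3.39, pileup 14.99, -log10 q 2.42) lay 783 bp upstream of its start and was credited to MBD6, which is read in the opposite direction from nearby. The region belongs to the span between these gene starts, and the table cannot say which of the genes it serves. At the other end, DDIT3 meets the end of MARS1, the methionyl-tRNA synthetase gene, whose own promoter was marked at a fold of 11.8.

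Regions away from promoters were found at 4 of the 6 ATF4 genes (ATF4, CHAC1, TRIB3 and SESN2), not at ASNS or DDIT3. CHAC1 had a pair on its upstream side, 10507 and 3967 bp from the start in the authors' annotation, with folds of 6.11 and 3.53. SESN2 also had a pair upstream, at 10957 and 9497 bp, with folds of 5.83 and 4.31. The farther of these had a pileup of 16.9 (9.80 to 27.05), against 12.2 (6.33 to 21.2) at the SESN2 promoter, and the intervals overlapped. With the single regions of ATF4 and TRIB3 this gives 6 regions, and the 4 genes of the ATF6 and XBP1 arm had 0. In the wider lists described below, 11 of 25 other ATF4 targets and 8 of 25 other ATF6 and IRE1-XBP1 genes had such a region in control cells, so genes of both arms carried them. The counts were 1 of 12 for aminoacyl-tRNA synthetases, 2 of 12 for eIF2alpha kinases, phosphatase subunits and eIF2B, and 5 of 17 for ER-associated degradation. Regions over 1 kb from a start were found at 0 of the 10 genes in testosterone-treated cells, where 1.56% of all protein-coding genes had one, and 19.8% had one in control cells. These regions are tied to a gene by nearness alone, and those of the 10 genes all lay over 1 kb outside the gene bodies.

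**Figure D2:**
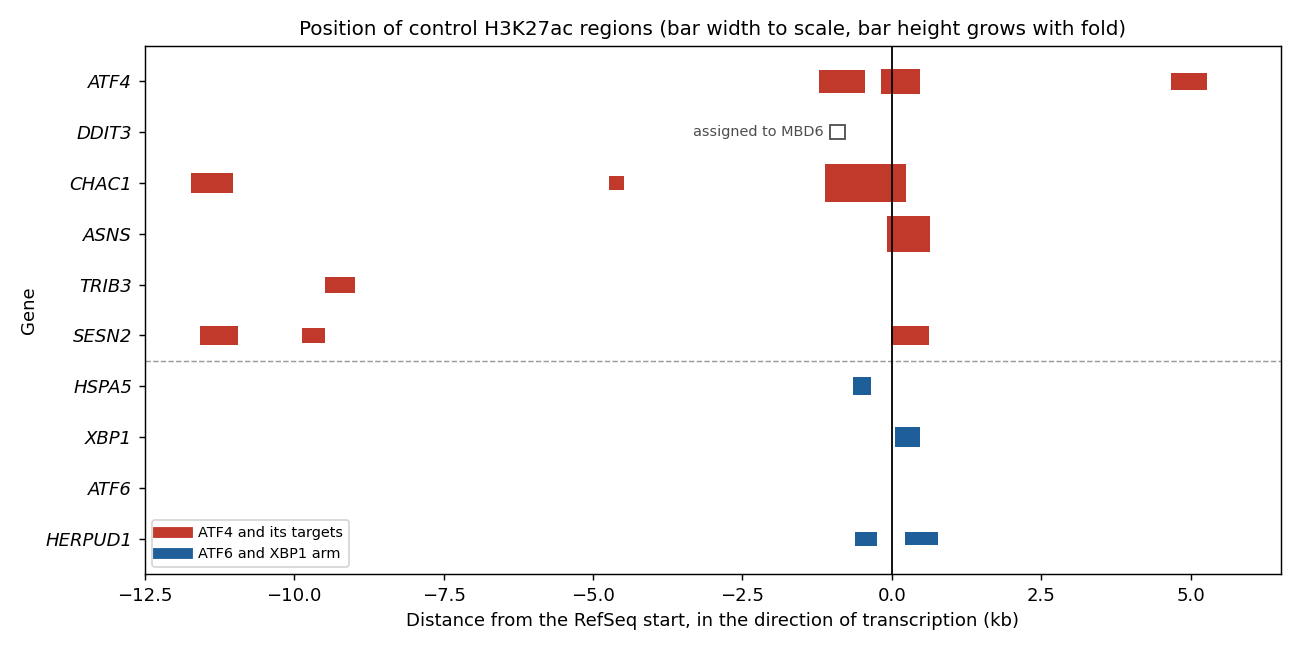
Control regions along each gene, in kb from the most upstream start with a RefSeq promoter sequence (vertical line, negative values upstream), with bar width to scale and bar height growing with fold. ATF4 genes (red, above the dashed line) have 6 regions over 1 kb from a start in the authors' annotation, and the 4 ATF6 and XBP1 genes (blue) have none; the open bar near DDIT3 was assigned to MBD6.

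On the ATF6 and XBP1 side, XBP1 had the strongest region and ATF6 had none. The XBP1 region (chromosome 22, 28800101 to 28800522, 422 bp) began 47 bp inside the gene, with a fold of 6.08, a pileup of 26.2 (17.2 to 38.4) and a -log10 q of 11.1. HSPA5, which encodes BiP, the main ER chaperone of the Hsp70 family, had a region of 313 bp on chromosome 9 (125241685 to 125241997) that ended 342 bp short of the start on its upstream side. Its fold was 5.29 and its pileup 13.1 (7.002 to 22.4), which placed it at percentile 38.7 of marked promoters by fold and 12.9 by pileup. The start of HSPA5-DT, a non-coding RNA gene, lies beside it as well, and the table cannot say which gene the region serves.

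HERPUD1, an ER membrane protein of the degradation pathway, had a pair of regions on chromosome 16 that left its start free. The upstream one (56931529 to 56931899) had a fold of 3.60 and a pileup of 20.6 (12.7 to 31.6), and the downstream one (56932363 to 56932918) had a fold of 3.01 and a pileup of 14.05 (7.69 to 23.6). By fold it was the weakest of the 7 marked genes, at percentile 7.51, and by pileup it stood at percentile 55.5. The local background was computed here, by taking fold as pileup plus 1 over background plus 1, since no background was given. Behind the upstream region of HERPUD1 it was 4.999 fragments, against 2.55 at CHAC1 and 2.16 at the median marked promoter. The place of HERPUD1 in the order differs between the measures. ATF6 (chromosome 1, 161766320 to 161964070) had no region on its gene body, and the nearest one lay 15.3 kb upstream of its start, at DUSP12.

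The comparison of the ATF4 genes with the ATF6 and XBP1 genes was made on control cells only. Promoter regions were found at 4 of 6 ATF4 genes (ATF4, CHAC1, ASNS and SESN2) and at 3 of 4 ATF6 and XBP1 genes (HSPA5, XBP1 and HERPUD1). Each marked gene was taken by its promoter region with the highest fold. The median fold was 10.5 for the ATF4 genes (5.41 to 14.0) and 5.29 for the ATF6 and XBP1 genes (3.60 to 6.08), a difference of 5.26. All marked protein-coding genes had a median of 5.86, with an interquartile range from 4.62 to 7.51. The ranges overlapped, since SESN2 lay below XBP1. For the same regions the pileup medians were 30.4 and 20.6 fragments, and here too SESN2 (12.2) lay below all 3 genes of the other arm. The summed width of all regions, among genes with any, had a median of 1648 bp at 5 ATF4 genes and 422 bp at 3 ATF6 and XBP1 genes, and of 728 bp over all genes. In the wider lists described below, the median fold was 5.96 at other ATF4 targets and 5.02 at aminoacyl-tRNA synthetase genes. It was 5.48 at other ATF6 and IRE1-XBP1 genes and 5.69 at ER-associated degradation genes, so no gap of 5.26 was seen there. With HERPUD1, which ATF4 also regulates, counted among the ATF4 genes, the difference in median fold within the 10 genes was 2.28. These are 10 chosen genes in 1 library, which are not replicates, so no test was made and the difference is a description.

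The matches of the printed promoters lay differently relative to the acetylated regions. The CARE of CHAC1, which began 209 bases before the start, lay inside the region and 100 bp from its summit. That of ASNS began 68 bases before the start, inside the edge of its region and 149 bp from the summit. In the other arm every match fell outside the called regions, including the CARE of HERPUD1, so the split did not follow the element. The share of matches inside regions over all promoters was not computed. The ERSE of HSPA5, 66 bases before the start, lay 276 bp from the region. The ERSE of XBP1, 52 bases before the start, lay 81 bp from it. In HERPUD1 the CARE (176 bases before the start) and the ERSE-II (117 bases before it) lay in the gap between its 2 regions, 67 bp and 126 bp from the upstream one. A match is a run of letters and not evidence of binding, and acetylation is carried by the nucleosomes beside a bound site.

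**Figure D3:**
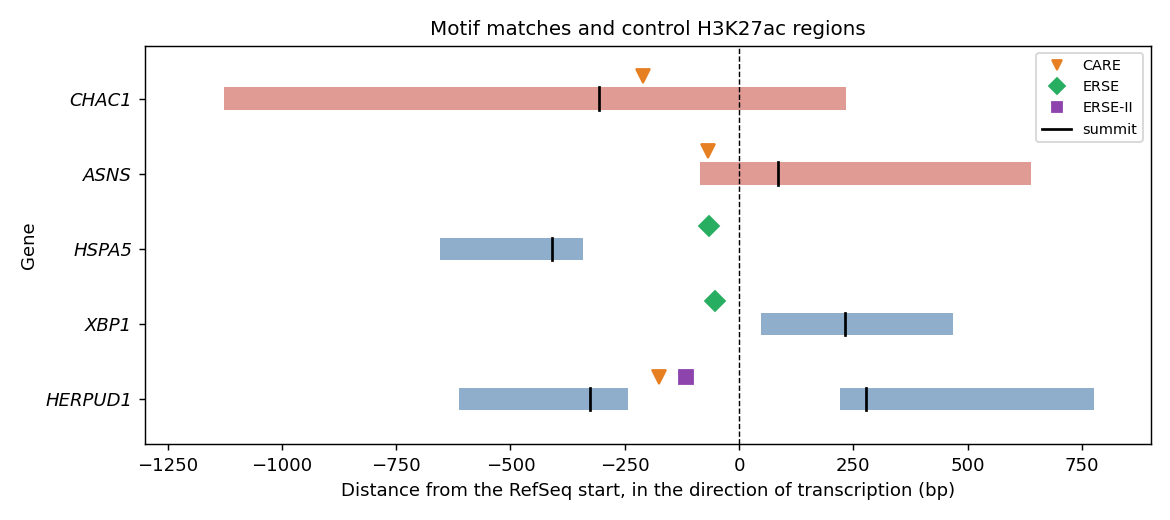
Control regions (bars, with the summit as a black line) and motif matches (symbols at the first base of the match) in bp from the most upstream start with a RefSeq promoter sequence. Both matches of the ATF4 genes (CHAC1 and ASNS, red) lie over a region, and the 4 matches of HSPA5, XBP1 and HERPUD1 (blue) lie between or beside regions.

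Over RefSeq windows of all genes, 3.62% held a CARE, 0.0772% an ERSE, 0.0543% an ERSE-II and 0.732% a UPRE. Among windows of protein-coding genes with a control promoter region, the shares were 1.68%, 0.119%, 0.119% and 0.802%. Counted by protein-coding gene, 3.60% had a window with a CARE and 0.133% one with an ERSE. Among the pathway genes listed below, a CARE was found at 7 of the 10 aminoacyl-tRNA synthetase genes with a window (AARS1, CARS1, GARS1, IARS1, MARS1, NARS1 and TARS1). It was found at 5 of 18 other ATF4 targets (ATF3, CEBPG, JDP2, SLC3A2 and SLC7A1). An ERSE was found at 5 of 23 other ATF6 and IRE1-XBP1 genes, all of them ER chaperones or folding factors (CALR, CANX, CRELD2, HSP90B1 and PDIA6), and an ERSE-II at HYOU1 and SDF2L1. The elements were not confined to one arm, since a CARE was also found at CREB3L2 and SRPRB of that list and at PPP1R15B, and a UPRE at HYOU1, CARS1, UBE2J1 and VCP. These lists were made of known targets, and such elements are part of how targets became known, so the shares are given without a test.

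The 3 genes without a promoter region (ATF6, TRIB3 and DDIT3) differed widely in base composition. The ATF6 window was the poorest in G and C (47.0%, with 17 CG pairs), and the TRIB3 windows were the richest (75.3% to 77.0%, with 36 to 38). Windows of all protein-coding genes had a median of 62.3%, those of genes with a control promoter region one of 66.0% and those without one of 58.7%. DDIT3, at 63.3% in both of its windows, lay between these values.

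The wider pathway was then described through 5 lists with 91 further genes. Of these, 2 had a promoter region in testosterone-treated cells, where 0.936% of all protein-coding genes had one. In control cells 68 (74.7%) had one, against 41.0% of all protein-coding genes. The treated counts of single lists given below stand beside the same 0.936% and do not measure a loss at these genes. The 2 were XPOT and CREB3L1. XPOT, the nuclear export receptor of tRNA, had a treated region (chromosome 12, 64405508 to 64405753) with a fold of 4.32 and a pileup of 9 (4.12 to 17.1) that overlapped a control region, and its strongest control promoter region had a fold of 9.90. CREB3L1, an ER-anchored transcription factor cut like ATF6, had a treated region (chromosome 11, 46294662 to 46294899) with a fold of 4.64 and a pileup of 9 (4.12 to 17.1), 564 bp from the nearest control region, and a control promoter fold of 5.56. One more treated region was credited to SEL1L over a distance of 1751 kb. The pileup of 9 at XPOT and CREB3L1 compares with a median of 10 over the testosterone list, whose median fold was 4.64. Neither region remained at a -log10 q of 5.

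Upstream of ATF4, the kinases and phosphatase subunits of eIF2alpha and its exchange factor eIF2B had a promoter region at 0 of 12 genes in testosterone-treated cells and at 10 of 12 in control cells. The strongest were EIF2AK3 (PERK, fold 9.004), EIF2AK2 (PKR, 8.55) and PPP1R15B (7.74), the constitutive phosphatase subunit. PPP1R15A (GADD34), the stress-induced phosphatase subunit and itself an ATF4 target, was the weakest at 3.76. EIF2B1 and EIF2B3 had no region.

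Other ATF4 targets had a promoter region at 1 of 25 genes in testosterone-treated cells and at 18 of 25 in control cells, with a median fold of 5.96. CEBPB (13.2), a partner factor of ATF4, and PSPH (12.7), of serine synthesis, led, followed by XPOT, and the mitochondrial enzyme gene PCK2 was the weakest (3.81). Genes with control regions only farther away were ATF5, SLC7A5, DDIT4, GDF15 and JDP2. DDIT4 (REDD1, an mTORC1 inhibitor) had 9 of them, the nearest 12375 bp from its start. VLDLR and ALDH1L2 had none. Aminoacyl-tRNA synthetase genes were marked at 0 of 12 promoters in testosterone-treated cells and at 9 of 12 in control cells, led by MARS1 (11.8), TARS1 (8.55) and AARS1 (8.39), with CARS1 the weakest (4.19) and no region at SARS1 or YARS1.

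Other genes of the ATF6 and IRE1-XBP1 arms were marked at 1 of 25 promoters in testosterone-treated cells and at 19 of 25 in control cells, with a median fold of 5.48. PDIA3 (12.2), a protein disulfide isomerase, DNAJB9 (8.14) and DNAJC3 (8.11), co-chaperones of BiP, were the strongest, and ATF6B (3.75), the paralog of ATF6, the weakest. CREB3, DNAJB11, SEC61A1, SEC61B, SEC24D and SRPRB had no region. ER-associated degradation genes were marked at 0 of 17 promoters in testosterone-treated cells and at 12 of 17 in control cells. EDEM3 (9.92) and HERPUD2 (8.99) led, and SYVN1, the ubiquitin ligase HRD1, was the weakest (2.69). DERL2, EDEM2, SELENOS and UFD1 had none. Over the 5 lists the median fold of marked promoters was 5.65, and that of all marked promoters was 5.86. The lists were chosen and not drawn at random, so no test sets them against all genes.

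**Figure D4:**
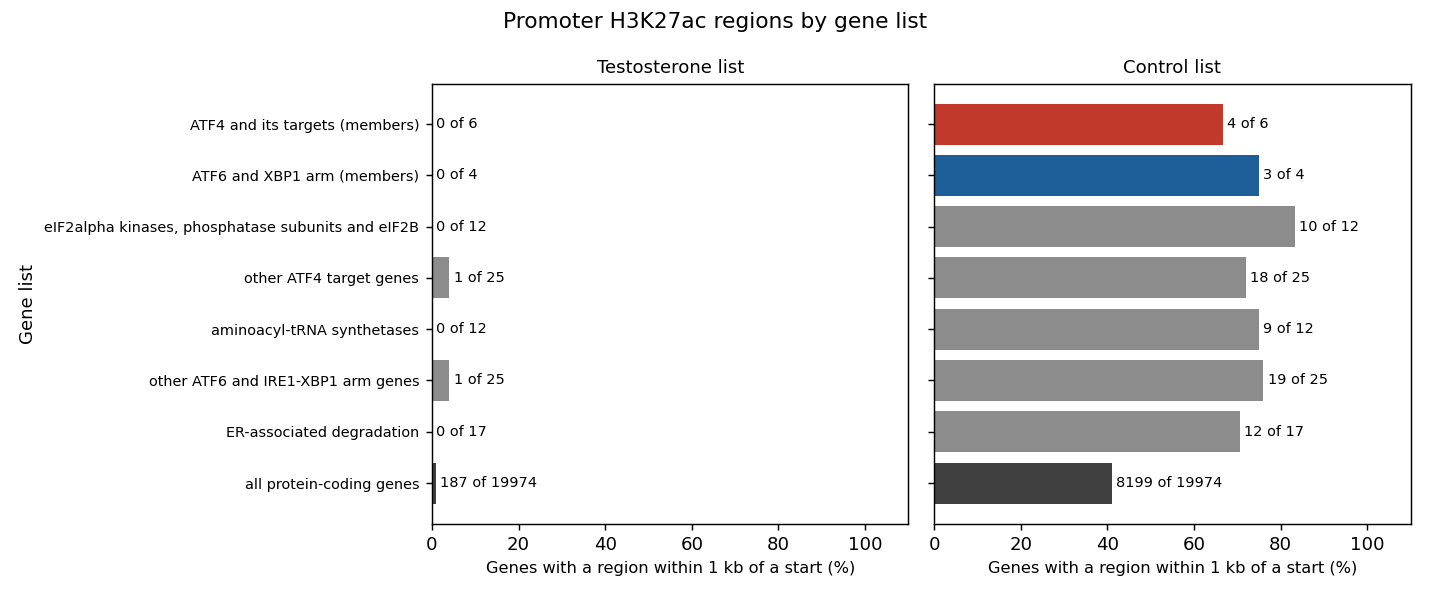
Share of genes (%) with an H3K27ac region within 1 kb of a start, by gene list, in the testosterone list (left) and the control list (right), with counts beside the bars. In the testosterone list each pathway list holds 1 marked gene at most, where 0.936% of all protein-coding genes are marked. In the control list each pathway list lies above the 41.0% of all protein-coding genes.

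The labelled cell type was checked against marker genes. Of 11 granulosa markers, 0 had a promoter region in testosterone-treated cells, where 0.936% of all protein-coding genes had one. In control cells 3 had one (FOXL2, KRT8 and KRT18), which is below the 41.0% of all protein-coding genes. NR5A1 had control regions farther away only, while FSHR, CYP19A1, AMH, AMHR2, INHA, GATA4 and WT1 had no assigned region in either list. Of 10 markers of other ovarian and blood cells, EPCAM alone had a promoter region, with a fold of 4.18 in testosterone-treated cells and 5.33 in control cells, while PAX8, TCF21 and ZP3 had control regions farther away. By any control region, 4 of 11 granulosa markers and 4 of 10 markers of other cells were marked. The marker regions thus do little to identify the cells, and the keratin genes are shared with epithelia. Sequencing depth was not analysed here.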

How the data were processed

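Testosterone and control KGN cells each had an H3K27ac IP and an input library, and the authors deposited a list of called regions for each IP. Tools named in the submitters' processing notes are Bowtie2 2.0, MACS2, bedtools and ChIPseeker, with the builds hg38 and mm10. Caller settings: not given in the sources used here. Per the file headers, the deposited columns are the pileup signal in fragments at the summit, fold enrichment as a ratio, and -log10 p and -log10 q values for p-values and q-values. In the testosterone table these last headers were lost, and the columns were identified from order and values. Positions count from 1 and were read as GRCh38, since matched genes overlapped their RefSeq (GRCh38.p14) position for 100% of testosterone and 99.98% of control regions.

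Gene symbols were matched to RefSeq directly or by synonym at the same place, which gave 484 and 9637 protein-coding genes. A promoter region lies within 1 kb of the start that the authors' annotation gives. Distances in the figures and motif positions are from the most upstream start that has a RefSeq promoter sequence, and the annotated genes of ASNS and TRIB3 reach farther upstream. All 10 genes had a promoter sequence, in 16 windows. Poisson intervals treat the deposited pileup as a count, although the caller scaled it. They are therefore approximate and cover counting error only. No test was made, since each condition had 1 IP library and genes of a library are not replicates. The code was tested on simulated data, in which 200 of 200 planted promoter regions and 200 of 200 planted motifs were recovered. The genes, the lists and the motifs were chosen with earlier results of these data known. Genes were named by rule: the 10 genes, the 3 strongest and the weakest marked promoter of each wider list, genes with a testosterone region, and genes without a region where 6 or fewer (markers of the cell type were named beyond that). One gene that the rule names is not reported here. Genes marked only away from their promoter, and genes named for a motif match, were chosen after their values were seen. Alternatives were a stricter -log10 q (5 or 10) or fold (4), other promoter windows (500 bp or 3 kb), gene bodies in place of the authors' nearest gene, strength by -log10 p, and other groupings of the genes. Python 3.11.15 and pandas 2.3.3 were used.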

Additional observations from a re-analysis of the deposited data

How the results depend on the processing

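No paired analysis was possible because each condition had 1 IP library, and for the same reason no library could be left out. Of 48 values under alternatives, 33 kept to the reported value (counts within 1.5 times) and 15 moved. No difference between the gene groups changed sign, and the other values are counts, which cannot. The 0 of 10 genes with a testosterone region stayed 0 when gene bodies replaced the authors' nearest gene. No other alternative could have changed it, since stricter cut-offs and other promoter windows act on assigned regions, of which there were 0. Values fixed at 0 in this way are among the 33. In control cells the gene bodies, with 1 kb on each side, held 10 regions in place of 15, a change also counted among the 33. All regions over 1 kb from a start fell out, so the contrast in such regions between the gene groups rests on the nearest-gene rule. Still 8 of 10 genes had a region, with TRIB3 lost and DDIT3 gained through the region credited to MBD6. With -log10 q held to 5 or more, the 10 genes had 9 control regions in place of 15, and the wider lists had 0 promoters marked after testosterone in place of 2. At 10 or more that count was 0 too, and in control cells 4 of the 10 genes had any region, 4 had a promoter region (ATF4, CHAC1, ASNS and XBP1), 5 regions were left and 22 of 91 wider genes were marked. The difference in median fold between the ATF4 genes and the ATF6 and XBP1 genes (5.26) was 8.69 without the transcription factor genes, 2.28 with HERPUD1 among the ATF4 genes and 5.15 when the strongest region was taken by -log10 p. For pileup (9.84) the first and second of these gave 21.5 and 2.815. The difference in summed width (1226 bp) was 566.5 bp and 920 bp under the same changes, and 621.5 bp for promoter regions only. These groups hold 2 to 6 genes each, so moving a gene shifts the median by the choice itself. The tables list called regions only, and a promoter just under the caller's threshold cannot be told from one without the mark.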
